A study of Mus musculus with 2 samples.

Results

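Cd209a+ cells were taken from single-cell RNA sequencing of CD45+ immune cells. The cells came from subcutaneous flank tumors of MC38, a colon carcinoma line of the mouse. A barcode (the tag of 1 droplet) was chosen by its measured UMIs, where each UMI stands for 1 RNA molecule that was captured. It needed at least 1000 UMIs, at most 25% mitochondrial UMIs, at least 2 UMIs of Cd209a, at most 1 of Xcr1 and Clec9a together, at most 1 of Ly6c2, 0 of Cd3d and Cd3g, and at most 5 of C1qa, C1qb and C1qc together, and it could not carry both Ccr7 and Fscn1. This left 66 cells of 8090 barcodes past the UMI and mitochondrial limits: 30 of 4679 in Control and 36 of 3411 in IR. The study set irradiated against non-irradiated tumors of wild-type (WT) mice to see which immune cells the irradiated tumor holds. Control tumors were non-irradiated, IR tumors received a single local dose of 20 Gy, and the cells were sorted 4 days later from 4 pooled tumors per library, 1 library per group. The methods also use the name WT for Ythdf2 fl/fl mice and give male and female mice of 8 to 10 weeks for the study in general, and the labels give no allele beyond WT. Both groups share the genotype, the tumor line and the sort of live CD45+ cells. A second label of the samples, CD45+CD11b+Ly6Chi, describes a narrower gate than the sort in the protocol, and cells low in Ly6c2 are present in both libraries. With 1 library per group there is no replicate check of any difference and no test, and each interval given is a 95% interval for counting error only.

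Conventional dendritic cells take up antigen, cut it into peptides and show it to T cells. The type 1 lineage (cDC1) carries Xcr1 and Clec9a and is known for presenting to CD8 T cells, while the type 2 lineage (cDC2) carries lectins such as Cd209a and Clec10a and presents to CD4 T cells on MHC class II. Type I interferon, sensed through its receptor on these cells, turns on a large group of antiviral genes through a transcription factor complex that binds the interferon-stimulated response element (ISRE) in their promoters.

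The list with the most genes called higher in IR was the type I interferon response. The promoters shown next are of the 6 genes of that list that were called higher in IR and hold the core of the element, and of Cxcl10, an interferon-induced chemokine with the largest gain in UMIs of the genes called higher. Each run is the 250 bases before the gene's start, 5′ to 3′ along the gene's strand, from RefSeq on GRCm38.p6, and the capitals mark matches to GAAANNGAA on either strand, with overlapping matches merged.
Ifit1 promoter, chr19:34640639-34640888, plus strand: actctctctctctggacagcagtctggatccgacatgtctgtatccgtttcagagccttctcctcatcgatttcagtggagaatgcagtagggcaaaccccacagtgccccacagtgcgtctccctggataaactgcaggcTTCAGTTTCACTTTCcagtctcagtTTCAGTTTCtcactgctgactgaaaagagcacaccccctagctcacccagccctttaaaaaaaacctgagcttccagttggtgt
Ifit3 promoter, chr19:34583279-34583528, plus strand: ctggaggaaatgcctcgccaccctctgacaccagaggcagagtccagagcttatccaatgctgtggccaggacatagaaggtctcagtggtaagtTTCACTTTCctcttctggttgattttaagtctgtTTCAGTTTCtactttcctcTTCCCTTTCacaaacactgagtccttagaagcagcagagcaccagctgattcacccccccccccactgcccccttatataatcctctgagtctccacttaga
Isg15 promoter, chr4:156200819-156201068, minus strand: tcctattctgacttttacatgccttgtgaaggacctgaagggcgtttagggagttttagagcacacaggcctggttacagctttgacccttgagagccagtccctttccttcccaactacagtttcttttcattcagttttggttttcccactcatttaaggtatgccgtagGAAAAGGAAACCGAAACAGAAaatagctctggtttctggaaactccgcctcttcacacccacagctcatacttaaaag
Bst2 promoter, chr8:71537473-71537722, minus strand: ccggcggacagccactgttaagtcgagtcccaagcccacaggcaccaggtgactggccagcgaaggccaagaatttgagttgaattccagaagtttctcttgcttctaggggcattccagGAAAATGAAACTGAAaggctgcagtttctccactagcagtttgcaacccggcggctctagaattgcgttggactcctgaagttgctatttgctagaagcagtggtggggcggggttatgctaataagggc
Slfn5 promoter, chr11:82951852-82952101, plus strand: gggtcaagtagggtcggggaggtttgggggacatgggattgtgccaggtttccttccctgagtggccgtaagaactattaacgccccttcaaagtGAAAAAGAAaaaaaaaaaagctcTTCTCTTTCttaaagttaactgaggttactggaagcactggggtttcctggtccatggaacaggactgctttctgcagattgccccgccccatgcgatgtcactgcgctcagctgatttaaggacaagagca
Ifi205 promoter, chr1:174031756-174032005, minus strand: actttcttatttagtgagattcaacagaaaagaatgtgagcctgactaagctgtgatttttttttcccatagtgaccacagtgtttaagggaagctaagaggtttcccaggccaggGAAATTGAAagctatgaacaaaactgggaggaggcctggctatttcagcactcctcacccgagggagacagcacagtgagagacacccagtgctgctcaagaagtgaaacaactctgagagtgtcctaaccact
Cxcl10 promoter, chr5:92348890-92349139, minus strand: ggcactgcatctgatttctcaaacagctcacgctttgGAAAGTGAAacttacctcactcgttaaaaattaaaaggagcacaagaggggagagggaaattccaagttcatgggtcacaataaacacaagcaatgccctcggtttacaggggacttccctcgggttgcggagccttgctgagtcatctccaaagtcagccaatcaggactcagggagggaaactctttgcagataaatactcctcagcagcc
Of the 10 interferon-list genes called higher, 9 had promoters in the table and 6 of these (66.7%) held GAAANNGAA. The motif stood in 11 of 31 genes called higher with a promoter in the table (35.5%), in 6 of 33 genes called lower (18.2%), in 258 of 3001 genes tested (8.6%) and in 8.18% of all 27025 genes with a promoter. Among all 38 interferon-list genes tested, 13 of the 26 with a promoter held it (50%). TTCNNNGAA, the core of the gamma-activated site (GAS), stood in 2 of the 31 and 3 of the 33 genes called higher and lower. It stood in 7.06% of genes tested and in 8.13% of all genes with a promoter. The promoters of Irf7, Oasl2 and Daxx, which were also called higher, held no GAAANNGAA in these 250 bases, and Rtp4 had no entry.

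The libraries held 48593879 UMIs in Control and 42406461 in IR over all barcodes. The 30 Control cells held 211272 UMIs, with a median of 6672.5 per cell (2532 to 15137), and the 36 IR cells held 385527, with a median of 8463.5 (2751 to 23394). The IR cells were thus the deeper ones, and levels are given relative to total UMIs. Median genes per cell were 2139 and 2414, and median mitochondrial shares 3.63% and 3.11%. The libraries shared 6 barcode sequences past the limits, and 0 of these were Cd209a+ cells. Free RNA was estimated from 25 T, NK, neutrophil and stromal genes, other than those of the rule, which gave 12 UMIs in the Control cells and 18 in the IR cells, or 2.64% and 0.905% of their UMIs by the profile of empty droplets. This left out Il1r2 and Klrk1, which the cells themselves carried (103 and 114 UMIs of Il1r2, 20 and 72 of Klrk1), a choice made after their values were seen.

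Cd209a, a C-type lectin of the DC-SIGN family on chromosome 8 (GRCm38, 3743397 to 3748984, minus strand), set the membership, so its level is a description. CPM (counts per 1000000) is a gene's UMIs summed over the cells of a library, scaled to their total. Cd209a stood at 1207 CPM in Control, with an interval of 1063 to 1365, and at 1115 CPM in IR, with an interval of 1012 to 1226. Per cell it ran from 2 to 48 UMIs with a median of 5 in Control, and from 2 to 36 with a median of 7 in IR. Just inside the limit of 2 stood 5 Control and 6 IR cells with 2 UMIs, and just outside it stood 22 and 13 barcodes with 1 UMI that met every other condition. A total of 6 Control and 7 IR cells carried the 1 Ly6c2 UMI that was allowed. Among NK cells, which should lack the gene, 2 of 199 (1.01%) in Control and 2 of 206 (0.971%) in IR had at least 1 Cd209a UMI, at median depths of 8838 and 11450.5 UMIs. At least 2 UMIs, the limit of the rule, were held by 0 of the Control and 1 of the IR NK cells (0.485%).

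The label of these cells, conventional type 2 dendritic cells, was borne out by some of its markers and not by others. MHC class II was present nearly throughout: H2-Aa, a chain of the classical class II molecule, was carried by 30 of 30 Control and 35 of 36 IR cells, at 8704 and 10124 CPM. Monocytes picked by Ly6c2 in the same libraries held 1659 and 1619 CPM of H2-Aa. The lectin Clec10a stood at 497 and 285 CPM against 30.7 and 19.6 CPM in the monocytes, and at 8.95 and 0 CPM in cDC1. H2-DMb2, a subunit of the H2-DM molecule that loads peptide onto class II, was carried by 19 and 20 cells. Plet1, a surface protein of some cDC2, was carried by only 6 and 8 cells, and Kmo, an enzyme of the kynurenine pathway, by 7 and 13. Flt3, the growth factor receptor of the dendritic lineage, was carried by 10 and 13 cells, and Zbtb46, a transcription factor of conventional dendritic cells, by 3 and 9. Genes shared with monocytes were also present: Ccr2, the receptor that brings monocytes into tissue, in 24 and 27 cells and Csf1r, the receptor for macrophage colony-stimulating factor, in 19 and 20. The cells are therefore called by the gene that chose them.

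**Figure D1:**
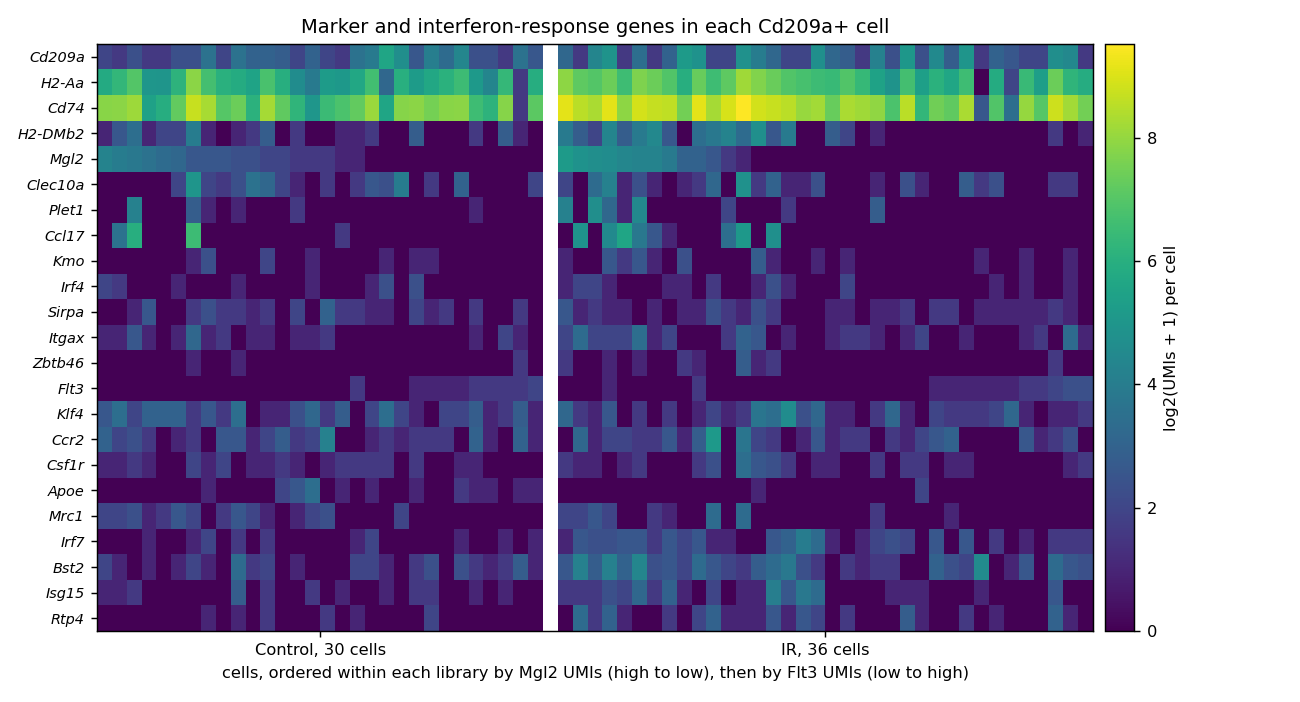
Each column is 1 of the 66 Cd209a+ cells and each row a gene, with log2(UMIs + 1) as color, for 30 Control cells at left and 36 IR cells at right. Cells are ordered by Mgl2 UMIs from high to low and then by Flt3 UMIs from low to high. This order itself places cells with Mgl2 at the left of each library and cells with Flt3 and no Mgl2 at its right. H2-Aa and Cd74 are bright nearly throughout, and Irf7 is seen in 10 Control and 28 IR cells.

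Set against the other populations, the 15 genes with the largest ratio of the Cd209a+ cells over monocytes in both libraries were led by Mgl2, H2-DMb2, Clec10a, Plet1 and Ccl17 and included 5 more class II genes (H2-Eb1, H2-Aa, H2-Ab1, H2-DMb1 and Cd74) and Ciita, the factor that drives class II transcription. Mgl2, a galactose-binding lectin, stood at 525 and 532 CPM in the Cd209a+ cells and 33.4 and 36.7 CPM in monocytes. H2-DMb2 stood at 327 and 508 CPM against 17.7 and 34.9 CPM, and its paralog H2-DMb1 at 1264 and 1379.9 CPM against 271 and 289 CPM. Reads of these near-identical copies may be split between them. Over cDC1 the leading genes were Clec10a, Tmem176b and Cd7. Tmem176b, a membrane protein of myeloid cells, was at 0 CPM in cDC1 of both libraries and at 251 and 163 CPM in the Cd209a+ cells. Cd7, better known from lymphocytes, stood at 289 and 314 CPM in the Cd209a+ cells, against 0 and 10.0 CPM in cDC1 and 47.0 and 44.5 CPM in monocytes. Over mature DC, cells with Ccr7 and Fscn1, the leading genes were Cd7, Cd300a, Ear2 and Clec10a. T cell markers other than the genes of the rule summed to 1 UMI in Control and 0 in IR, which allows up to 7.78 CPM.

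The Cd209a+ cells varied among themselves in a way that the rule did not set. Mgl2 was carried by 31 of the 66 cells and Flt3 by 23, yet only 3 cells carried both and 15 carried neither. With each cell thinned to 2000 UMIs, 24 cells carried Mgl2, 11 carried Flt3 and 0 of 66 carried both, which allows a share of up to 4.55%. All 14 cells with Plet1 and all 13 cells with Ccl17, a chemokine that draws CCR4+ T cells, also carried H2-DMb2, which 39 of the 66 cells did. Among the 13 Ccl17 cells, 12 carried Mgl2 and 1 carried Flt3. At 2000 UMIs per cell the overlap with H2-DMb2 was not complete. It was then carried by 3 of 7 cells with Plet1, by 7 of 10 cells with Ccl17 and by 22 of all 66. Thinned to 2000 UMIs, NK cells had Mgl2 in 3.11% of Control cells and 0% of IR cells and had Flt3 in 0% and 0.495%, while the Cd209a+ cells had Mgl2 in 46.7% and 27.8% and Flt3 in 13.3% and 19.4%.

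Cells with Mgl2 and cells with Flt3 also differed in other genes in both libraries. Cd7 stood at 555 CPM in Control and 970.2 CPM in IR in the cells with Flt3 and no Mgl2 (9 and 11 cells), and at 17.1 and 18.3 CPM in the cells with Mgl2 and no Flt3 (17 and 11 cells). H2-DMb2 stood at 219 and 38.3 CPM in the former and 437 and 665 CPM in the latter. Ccl17 was at 0 UMIs in the former in both libraries and at 1423 and 842 CPM in the latter. Klf4, a transcription factor of a cDC2 subset, stood at 336 and 319 CPM against 686 and 128 CPM, so its order differed between the libraries. H2-Aa was at 6501 and 8923 CPM against 10048 and 10275 CPM. The cells with Mgl2 and no Flt3 were the deeper ones in IR, with a median of 14292 UMIs against 7154, and not in Control, with 5757 against 7707. These are small groups picked after their values were seen, and no cell type is named from them.

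The Cd209a+ cells made up 0.641% (exact binomial interval 0.433 to 0.914) of barcodes in Control and 1.06% (0.74 to 1.46) in IR. The ratio of the shares was 1.65 (1.02 to 2.67). The monocytes of the same libraries went from 433 to 837 barcodes, a ratio of 2.65 (2.38 to 2.95), mature DC from 105 to 131, a ratio of 1.71 (1.33 to 2.2), and cDC1 from 16 to 8, a ratio of 0.69 (0.29 to 1.6). Shares within a sort depend on every other cell in it: counted among dendritic cells and monocytes only, the Cd209a+ cells were 30 of 584 in Control and 36 of 1012 in IR, a ratio of 0.692, the opposite direction. The ratio also moved with the C1q limit, to 1.21 (42 and 37 cells) without it and to 3.66 (12 and 32 cells) where no C1q UMI was allowed. More Cd209a+ cells in a tumor and fewer of the other cells cannot be told apart from these shares.

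Gene by gene, 3736 genes had at least 20 UMIs over both libraries. A gene was called where its CPM differed at least 2-fold and the exact Poisson intervals of the 2 libraries did not overlap. By this rule 37 genes (0.99%) were higher in IR and 42 (1.12%) were lower, and the median log2 ratio of all genes tested was 0.03. At shares this low, 0 genes called in a short list is near the share over all genes and is no result about that list. This holds below for the class I, class II, cDC2, core dendritic cell, cytokine, receptor, pattern recognition, p53 and m6A lists. With so few cells, 1 cell could hold most UMIs of a gene: it held over 50% for 6 of the genes called higher and 6 of those called lower. After the cell with the most UMIs of the gene was left out of each library, 28 of the genes called higher (0.749% of all tested) and 23 of those called lower (0.616%) were still called in the same direction. With library sizes scaled by TMM the split was 55 higher and 35 lower, with 37 and 35 genes shared with the calls above. Since the IR cells were deeper, the rule was also applied after each barcode was thinned to 2000 UMIs, which chose 22 and 32 cells. This called 38 genes higher and 37 lower, of which only 10 and 9 were shared with the calls above. Leaving out single cells was added after the data were seen, and each gene described below that failed it is marked as such.

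**Figure D2:**
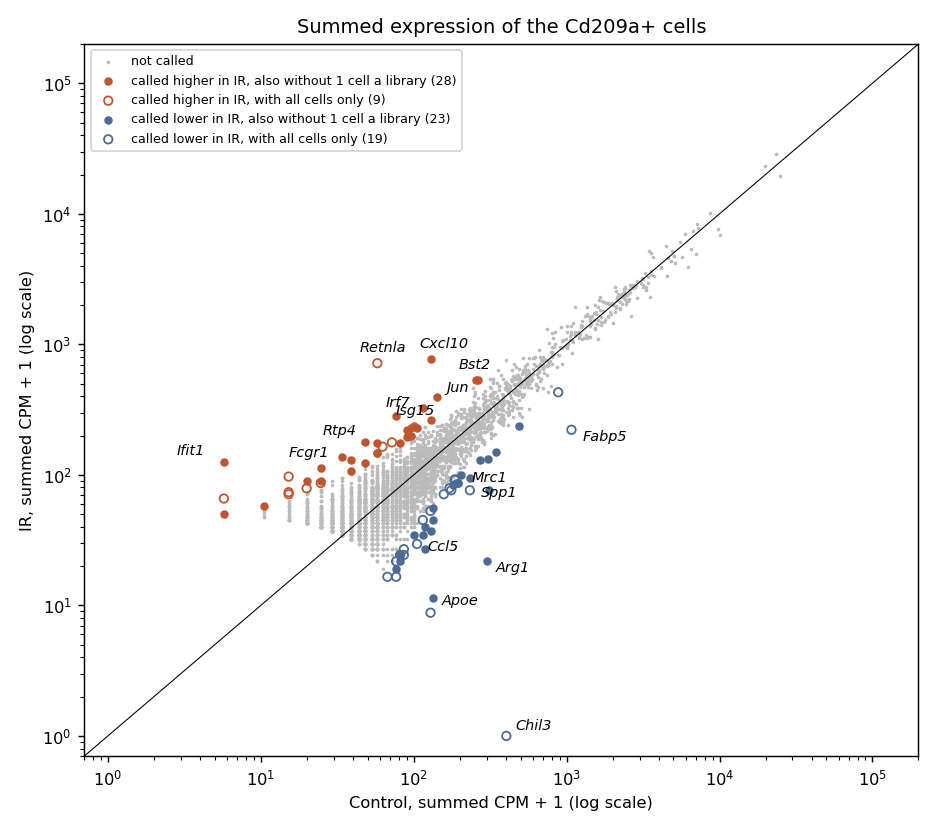
Summed CPM + 1 of each of the 3736 genes tested, Control on the x axis and IR on the y axis, both on log scales. Filled points are the 28 genes called higher and 23 called lower that were also called without the cell with the most UMIs, open points are the others called, and the diagonal marks equal values. Irf7, Rtp4 and Cxcl10 lie above the diagonal and Arg1 and Apoe below it.

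Of the 53 genes of the type I interferon list in the files, 38 were tested. Of these, 10 (26.3%) were called higher and 0 lower, against 0.99% and 1.12% of all genes tested. A log2 ratio above 0 was seen in 33, and the list median was 0.78 against 0.03 for all genes. Of the 10, 9 were still called without the cell with the most UMIs, the exception being Ifit3. With the rule applied at 2000 UMIs the median was 0.77. The summed level of the list was 10044 CPM in Control and 14155 CPM in IR. Per cell it ran from 3001 to 23658 CPM with a median of 10148 CPM in Control, and from 5172 to 41136 CPM with a median of 12484 CPM in IR, so that the cells of the libraries overlapped widely. Free RNA at the estimated shares would give 168 CPM of the list in Control and 119.7 CPM in IR.

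Irf7, the transcription factor that amplifies interferon production and response, went from 75.7 CPM (43.3 to 123) to 280.1 CPM (229.8 to 338), a log2 ratio of 1.89 (1.12 to 2.74). It was carried by 10 of 30 Control cells and 28 of 36 IR cells. Thinned to 2000 UMIs per cell, these shares were 10% and 41.7%, so the order of the libraries was the same at equal depth. Rtp4, an interferon-induced chaperone of receptors, went from 47.3 CPM (22.7 to 87.0) in 6 cells to 176 CPM (137 to 224) in 21 cells. Bst2, or tetherin, which holds budding virus on the cell surface, went from 256 CPM (192 to 333) in 21 cells to 532 CPM (461 to 609.7) in 31. The cell with the most UMIs held 13.9%, 13.2% and 11.2% of the IR UMIs of Irf7, Rtp4 and Bst2. With the rule applied at 2000 UMIs their log2 ratios were 1.59, 1.46 and 0.37, so that Bst2 was below 2-fold. Without the Ly6c2 limit (52 and 68 cells) Irf7 had a log2 ratio of 0.68 and Bst2 of 0.046, both below 2-fold. Over all alternatives the ratios ran from 0.68 to 2.17 for Irf7, from 1.46 to 2.87 for Rtp4 and from 0.046 to 1.64 for Bst2. In NK cells thinned likewise, Irf7 was present in 3.63% of the Control and in 25.2% of the IR barcodes.

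Isg15, a ubiquitin-like modifier, stood at 104 CPM in Control and 228 CPM in IR, a log2 ratio of 1.13 (0.45 to 1.88), in 12 and 21 cells, and the ratio was 0.65 with the rule at 2000 UMIs. Slfn5, of the Schlafen family, stood at 94.7 and 197 CPM, in 10 and 24 cells, and Oasl2, of the oligoadenylate synthetase family, at 56.8 and 145 CPM, in 10 and 22 cells. Daxx, a histone chaperone that interferon also raises, went from 37.9 CPM in 7 cells to 106 CPM in 22 cells. Ifi205, of the Ifi200 family of nucleic acid sensors, went from 23.7 CPM in 4 cells to 112 CPM in 16 cells, and its reads may be shared with the other members of its cluster.

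Ifit1 and Ifit3, which encode proteins that bind foreign RNA, were carried by few cells. Ifit1 had 1 UMI in Control and 48 in IR, 60.4% of these in 1 cell of the 8 that carried it. Its log2 ratio of 4.72 had an interval of 2.17 to 10.05. Ifit3 had 3 and 37 UMIs, 64.9% of the latter in 1 of 9 cells, and it was not called without that cell.

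The most abundant genes of the list differed less. Ifitm3, which blocks viral entry at membranes, stood at 3645 CPM in Control and 4640.4 CPM in IR, a log2 ratio of 0.35 (0.23 to 0.47), and Ifi27l2a at 1136 and 1932 CPM, a ratio of 0.77 (0.55 to 0.98). Ly6a was at 1084 CPM in both, with 52.4% of its Control UMIs in 1 cell. Stat2 and Irf9, which transduce the interferon signal, were not called, with log2 ratios of -0.43 (-1.40 to 0.56) and 0.07 (-1.05 to 1.26). The receptor chains Ifnar1 and Ifnar2 had 17 and 17 and 23 and 36 UMIs, log2 ratios of -0.87 and -0.22. The 8 interferon genes searched, alpha, beta, gamma and lambda, had 0 UMIs in the Cd209a+ cells of both libraries, which allows up to 14.2 CPM in Control and 7.78 CPM in IR for each.

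**Figure D3:**
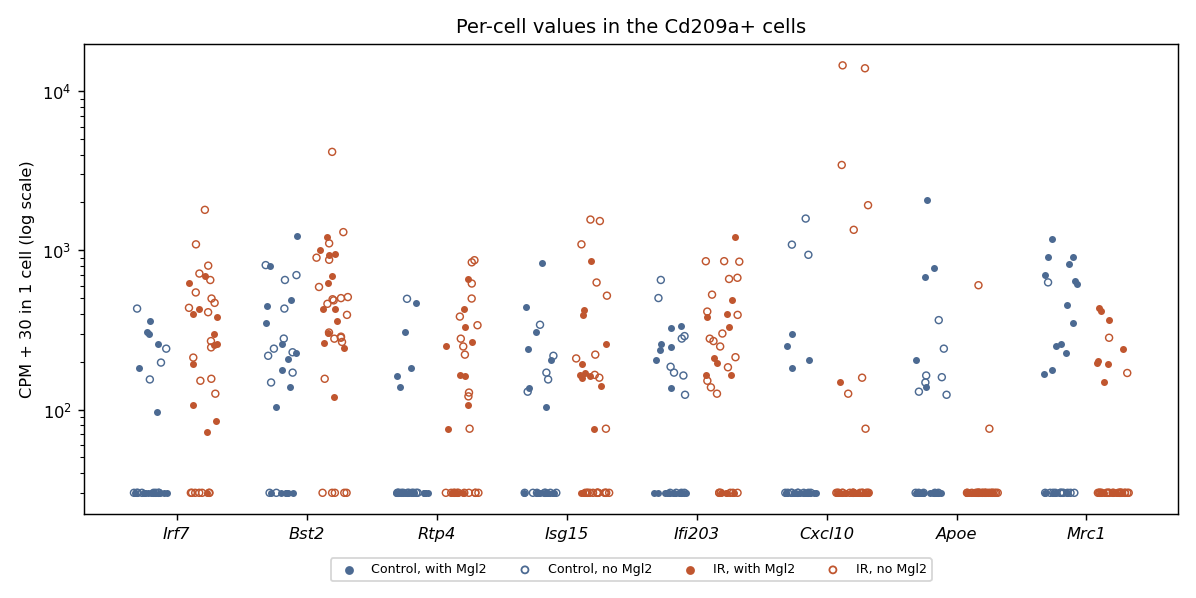
CPM + 30 in each cell on a log scale for 8 genes, Control in blue and IR in orange, with filled points for cells that carried Mgl2 and open points for cells without it. Points at the lowest line are cells with 0 UMIs. Irf7, Bst2 and Rtp4 are above 0 in more IR than Control cells, while the highest Cxcl10 values lie in a few IR cells without Mgl2.

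The interferon list was also read in the cells with Mgl2 (18 Control and 13 IR cells) and in those without it (12 and 23 cells), a split made after the data were seen. In the former, 27 of 35 list genes with at least 10 UMIs had a log2 ratio above 0, with a median of 0.73, and in the latter 28 of 35, with a median of 0.86. Irf7 went from 81.2 to 210.2 CPM with Mgl2 and from 68.1 to 352 CPM without it. Bst2 went from 227 to 528 CPM and from 295 to 535 CPM. The summed level of all list genes in the files did not follow the median: it went from 7847 to 14033 CPM with Mgl2 and from 13118 to 14279 CPM without it. In the cells with Flt3 and no Mgl2 (9 and 11 cells) it went the other way, from 13630 to 11042 CPM. Fewer of the IR cells carried Mgl2, and the part of that shift in the difference was not tested.

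The same list was higher in IR in the other populations of the 2 libraries. Its median log2 ratio was 0.99 over 38 genes in monocytes, 1.88 over 38 genes in mature DC and 1.03 over 19 genes in cDC1. Over the 19 genes tested in cDC1 the Cd209a+ cells had a median of 0.38. Of 37 list genes that could be compared with mature DC, 19 had a lower ratio in the Cd209a+ cells by a counting interval of the difference that lay below 0, and 1 had a higher one. Against monocytes 8 of 38 had a lower ratio and 0 a higher one, and against cDC1 7 of 19 and 1. These intervals compare cells within the same 2 libraries and do not cover the spread between tumors.

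**Figure D4:**
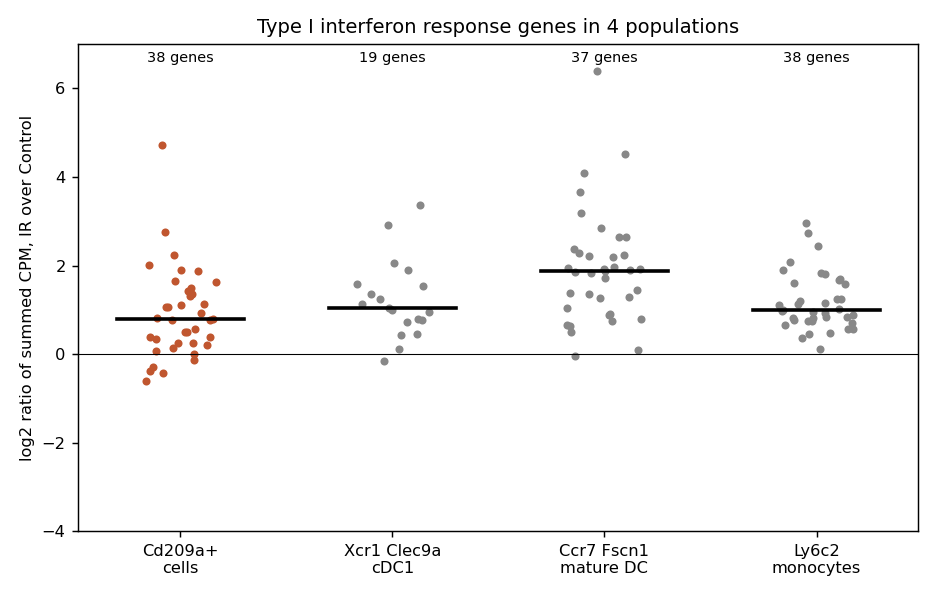
Log2 ratio of summed CPM, IR over Control, of each type I interferon list gene with at least 20 UMIs in the population, with the median as a bar. The medians are 0.78 in the Cd209a+ cells (38 genes), 0.99 in monocytes (38 genes) and 1.03 in cDC1 (19 genes), and mature DC lie highest, with 37 genes drawn and the gene at 0 UMIs in Control left off.

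Interferon-gamma targets had no common direction. Of 21 genes 13 were tested, with 1 called higher and 1 lower, against 0.99% and 1.12% of all genes tested. The median log2 ratio was 0.03. The gene called higher was Cxcl10, a ligand of CXCR3 on activated T and NK cells, which type I interferon also induces. It went from 128 CPM (84.2 to 186) to 770.4 CPM (685 to 863), but was carried by only 7 Control and 9 IR cells, and 41.4% of its IR UMIs lay in 1 cell. Cxcl9, the other CXCR3 ligand on the list, had 27 UMIs in each library, or 128 and 70.0 CPM. Gbp2, a guanylate-binding protein, was called lower, from 175 to 75.2 CPM, and was not called without the cell with the most UMIs. Irf1 stood at 227 and 145 CPM, a log2 ratio of -0.65 (-1.23 to -0.06). The median for these 13 genes was 0.89 in mature DC and 0.52 in monocytes. Over the 6 of them tested in cDC1 the median was 1.85 in cDC1 and -0.46 in the Cd209a+ cells. By the interval of the difference, 3 of these 6 had a lower ratio in the Cd209a+ cells and 0 a higher one.

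No antigen presentation gene tested was called. Of 12 class II genes tested 0 were called, against 0.99% and 1.12% of all genes tested called higher and lower. The median log2 ratio of the 12 was 0.17. Cd74, the invariant chain, stood at 23420.0 CPM in Control and 28859 CPM in IR, a log2 ratio of 0.30 (0.25 to 0.35), and H2-Aa, H2-Ab1 and H2-Eb1 had ratios of 0.22, 0.21 and 0.23. These 4 were measured on over 1000 UMIs per library, so their intervals exclude 0 although the differences are small. H2-DMb2 had the largest ratio, 0.64 (0.24 to 1.06), and Ciita had 161 CPM in both. In mature DC the median of the same genes was -0.52 and in monocytes 0.02, and 7 of 12 genes had a higher ratio in the Cd209a+ cells than in mature DC by the interval of the difference. In cDC1 the median was 0.23, with 3 of 12 genes higher in the Cd209a+ cells and 2 lower. Of 19 class I genes 0 were called, with a median of 0.07. The light chain B2m was at 2570.2 and 2619.8 CPM.

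Of the costimulation and checkpoint ligands, 11 of 17 were tested and 2 were called higher, against 0.99% of all genes tested. Cd24a, a glycoprotein that can costimulate T cells, went from 89.9 CPM (54.1 to 140.4) in 12 cells to 218 CPM (174 to 269.8) in 16 cells, but its log2 ratio was -0.065 where 1 Cd209a UMI was enough to enter. Tnfsf9, the ligand of 4-1BB, went from 5 to 33 UMIs and was not called without the cell with the most UMIs. Cd86 stood at 123 and 174 CPM, a log2 ratio of 0.50 (-0.18 to 1.21), Cd83 at 502 and 324 CPM and Cd274, which encodes PD-L1, at 14 and 21 UMIs. Cd52, the most abundant of the list, had a ratio of 0.20.

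Cytokines were few. Of 19 genes 4 were tested and 0 were called: Il1b (799.9 and 1224 CPM, log2 ratio 0.61 with an interval of 0.36 to 0.88), Tgfb1, Tnf and Osm. Il12b, a subunit of interleukin-12, was at 0 UMIs in both libraries. Of 12 chemokines tested 2 were called higher and 1 lower, against 0.99% and 1.12% of all genes tested. Beside Cxcl10, Ccl4 went from 71.0 to 176 CPM with 51.5% of its IR UMIs in 1 cell, and Ccl5 from 104 to 28.5 CPM with 68.2% of its Control UMIs in 1 cell, and neither was called without that cell. Ccl17 had 786 CPM in Control, 54.8% of it in 1 of 4 cells, and 482 CPM in IR, in 9 cells. The median of the list was -0.33, against 1.10 in monocytes and 0.39 in mature DC, and 8 of 12 genes had a lower ratio than in monocytes by the interval of the difference. Against cDC1 the order was the other way: over the 8 genes tested in both the median was 0.14 in the Cd209a+ cells and -2.55 in cDC1, and 6 had a higher ratio in the Cd209a+ cells and 1 a lower one.

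The cDC2 markers were not called in either direction, with 10 tested beside Cd209a and a median log2 ratio of 0.02, and neither were the 11 core genes of conventional dendritic cells, with a median of -0.07. Single genes of these lists lay below 0 by their intervals without reaching 2-fold: Klf4 stood at 563 and 319 CPM, a ratio of -0.82 (-1.20 to -0.44), Clec10a had -0.80 (-1.20 to -0.40), Sirpa -0.90 (-1.53 to -0.27) and Id2 -0.79 (-1.23 to -0.35). Plet1 stood at 133 and 215 CPM, a ratio of 0.70 (0.07 to 1.37), with 60.7% of its Control UMIs in 1 cell, and Klf4 and Plet1 passed the call rule, lower and higher, only once the cell with the most UMIs was left out. Kmo had 12 and 30 UMIs. Of 23 dendritic cell transcription factors tested, 1 was called lower, against 1.12% of all genes tested. It was not called without the cell with the most UMIs. The median log2 ratio of the list was -0.16, with 6 genes above 0 and 17 below. Irf4 and Irf8 had ratios of -0.37 and 0.36, with intervals that include 0.

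**Figure D5:**
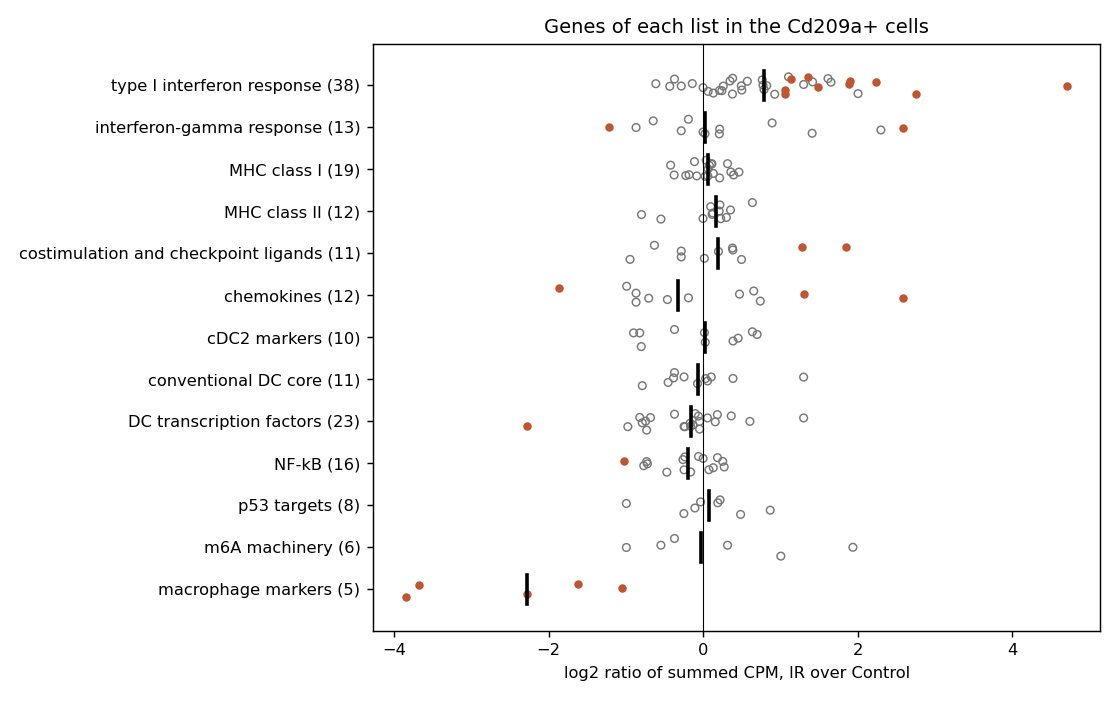
Log2 ratio of summed CPM, IR over Control, of each tested gene of 13 lists, with called genes filled and the median of each list as a bar. The interferon list (median 0.78) lies to the right of 0, the macrophage markers (median -2.28) to the left, and the class II, class I and cDC2 marker lists close to 0.

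The 5 macrophage markers that could be tested were all called lower in IR, against 1.12% of all genes tested, with a median log2 ratio of -2.28. The median was 0.11 in monocytes (5 genes), -1.16 in mature DC (4 genes) and -4.15 in cDC1 (4 genes). Over the 3 genes that could be compared with cDC1 the median was -3.54 in cDC1 and -3.68 in the Cd209a+ cells. Apoe, a lipid carrier made by macrophages, went from 133 CPM (88.1 to 192) in 12 cells to 10.4 CPM (2.83 to 26.6) in 2 cells. Arg1, the arginase of suppressive myeloid cells, went from 298 to 20.8 CPM, with 79.4% of its Control UMIs in 1 cell, and Mrc1, the mannose receptor, from 204 CPM in 15 cells to 98.6 CPM in 10. Apoe, Arg1 and Mrc1 were still called without the cell with the most UMIs, and Spp1 (49 and 29 UMIs) was not. The 9 genes of the list outside the rule summed to 1018 CPM in Control and 239 CPM in IR. With the C1q genes the list ran from 0 to 7368 CPM per Control cell and from 0 to 3637 CPM per IR cell. Mertk was at 0 UMIs in both libraries, and Trem2 and Ms4a7 were at 0 in IR.

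The rule itself allowed up to 5 C1q UMIs, and the libraries filled that allowance unequally: 12 of 30 Control cells and 32 of 36 IR cells had 0. Free RNA at the estimated shares would give 141 CPM of the macrophage list in Control and 39.2 CPM in IR. Thinned to 2000 UMIs, NK cells had Apoe in 15.5% of Control and 3.96% of IR cells, and Arg1 in 10.9% of both. The Cd209a+ cells thinned likewise had Apoe in 16.7% and 2.78%, and Arg1 in 6.67% and 2.78%. What part of the levels in the Cd209a+ cells was such background was not tested. Without the Ly6c2 limit (52 and 68 cells) the median was -0.56, and with the rule applied after thinning each barcode to 2000 UMIs (22 and 32 cells) it was -0.54, so the size of this difference depended on which cells were admitted. Under the latter rule Apoe had a log2 ratio of -0.41, Arg1 -0.62, Mrc1 -0.97 and Spp1 0.57. The part of these levels in the other differences was not tested.

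The largest ratios among the genes called higher and still called without the cell with the most UMIs included Fcgr1, the high-affinity receptor for IgG, which went from 33.1 CPM (13.3 to 68.3) in 7 cells to 135 CPM (101 to 177) in 15 cells. Mxd1, a partner of MAX that opposes MYC, went from 37.9 to 129.7 CPM, and Vdac1 and Atp5k, a channel and an ATP synthase subunit of mitochondria, went from 56.8 to 174 CPM and from 114 to 322 CPM. Jun, a subunit of the AP-1 factor, went from 142 to 392 CPM in 12 and 29 cells, while its partner Fosb was called lower, from 488 to 236 CPM. With the rule applied at 2000 UMIs Jun had a log2 ratio of 0.60, Atp5k 0.38 and Vdac1 -0.053. Hspa1b had 3 and 28 UMIs and was not called without 1 cell. Retnla had 276 UMIs in IR, all of them in 1 cell, and 12 in Control, and without the cell with the most UMIs in each library it was called lower, at 0 UMIs in IR and 33.5 CPM in Control.

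Among the genes called lower, Tmem176a went from 308 CPM in 20 cells to 75.2 CPM in 15 cells, a log2 ratio of -2.03 (-2.72 to -1.38). Zfp703 went from 118 to 25.9 CPM in 16 and 6 cells, Soat1, which esterifies cholesterol, from 114 to 33.7 CPM, and Epb41l2 from 133 to 44.1 CPM, in 15 and 11 and in 16 and 12 cells. Ear2, a ribonuclease of myeloid cells, was called lower with 73 and 57 UMIs, 86% of the latter in 1 cell. Others rested on 1 Control cell and were not called without it: Chil3, a monocyte gene, had 85 UMIs in Control, 97.6% of them in 1 cell, and 0 in IR, Fabp5 had 76.7% of its 227 Control UMIs in 1 cell, and Mmp12 had 74.1% of 27. Tnfaip3, the NF-kB inhibitor A20, stood at 185 and 90.8 CPM, the lectin Clec4a1 at 114 and 44.1 CPM, and both were called lower only with all cells. With the rule applied at 2000 UMIs, Fabp5, Mmp12 and Ccl5 had log2 ratios above 0 (0.18, 1.09 and 1.10), Tnfaip3 was at 0.0025 and Tmem176a at -1.42.

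Of 8 p53 targets tested 0 were called, with a median log2 ratio of 0.08, and Cdkn1a, the p21 inhibitor of the cell cycle, stood at 506 and 495 CPM, a ratio of -0.03 (-0.38 to 0.32). Of 11 cell cycle genes 1, Top2a, was called lower, against 1.12% of all genes tested. Top2a had 27 and 14 UMIs, with 78.6% of the latter in 1 cell. With each cell thinned to 2000 UMIs, 5 of 30 Control cells and 6 of 36 IR cells had at least 3 UMIs of the cell cycle list, which is 16.7% in both (5.64 to 34.7 and 6.37 to 32.8). Without thinning these were 16 and 27 cells. The median log2 ratio of the list was -0.02 over all cells, but its direction differed with Mgl2: 0 of 10 genes with at least 10 UMIs were above 0 in the cells with it (median -0.99), and 7 of 7 in the cells without it (median 2.51). These rested on few cells, with 213 of the 291 cell cycle UMIs of the IR cells without Mgl2 in 1 cell (73.2%), and 30 UMIs in the Control cells without it.

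The m6A machinery, which writes, removes and reads methyl marks on adenosine in RNA, was at the edge of detection. Of 10 genes 6 were tested and 0 were called. Ythdf2, a reader that speeds the decay of marked RNA and the subject of the study, had 11 UMIs in Control and 25 in IR, or 52.1 CPM (26.0 to 93.2) and 64.8 CPM (42.0 to 95.7), a log2 ratio of 0.32 (-0.76 to 1.49). Wtap, a subunit of the writer complex, had 4 and 28 UMIs, in 4 and 20 cells, a ratio of 1.94 (0.42 to 3.91), and its Poisson intervals overlapped. Of 16 NF-kB genes tested 1, Tnfaip3, was called lower, against 1.12% of all genes tested. Tnfaip3 was not called without the cell with the most UMIs. The list median was -0.20, with Nfkbia at 648 and 623 CPM. Outside this list, Tnfaip8l2, which the paper names as a reported negative regulator of NF-kB, was called higher. It went from 5 UMIs in 3 cells to 34 in 19, a log2 ratio of 1.90 (0.54 to 3.61). It was still called without the cell with the most UMIs, and was picked after its values were seen.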

How the data were processed

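Single-cell RNA sequencing libraries of live CD45+ cells from MC38 tumors, 1 Control and 1 IR, were made with the Chromium 3′ v3.1 chemistry, and per the labels and submitters' processing notes the authors aligned them to mm10 with Cell Ranger 6.0.1. The deposited values are raw UMI counts of 32285 genes for all barcodes, unnormalized and not filtered for cells. The study's own filters, doublet calls and clusters were not used here.

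Cells were chosen by the UMI limits given above. The rule, the members and the gene lists were chosen with earlier results of these data known. UMIs were summed over the cells of a library and divided by their total (CPM). Genes with at least 20 UMIs over both libraries were tested for a CPM difference of at least 2-fold with exact Poisson intervals that did not overlap. Intervals are exact Poisson for CPM, exact conditional binomial for log2 ratios and Clopper-Pearson for shares, at 95%. With a count of 0, 3 UMIs set the upper limit. List medians leave out the genes of the rule. Cells were thinned to 2000 UMIs for shares of cells. Scrublet (scanpy 1.11.5) marked 0 Control and 1 IR barcodes at its automatic threshold and so did not work as a caller. The 310 and 239 barcodes with the highest scores were left out as an alternative only, and held 0 and 1 of the Cd209a+ cells.

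Named genes were, per direction, the 12 with the largest log2 ratio of CPM + 10 among called genes with at least 100 CPM in 1 library, leaving out mitochondrial, ribosomal protein, Xist, Y-linked and rule genes. From each list every called gene was named where 4 or fewer, otherwise the 4 with the most UMIs, and where fewer than 3 were called also the 3 with the most UMIs, and the markers Cd209a, Plet1, Kmo and H2-DMb2 always. For the contrasts with other populations the 15 genes with the largest ratio were kept. Some genes that this rule names are not reported here. List genes described beyond these were picked for their known roles after their values were seen. Promoters came from RefSeq (GRCm38.p6). Python 3.11.15, numpy 2.4.6, pandas 2.3.3, scipy 1.17.1, matplotlib 3.10.9, R 4.3.3 and edgeR 4.0.16 (TMM factors only) were used. Only the call rule was tried on simulated data, as Poisson sums of UMIs per library. These sums held no spread between cells, so they do not cover genes with most UMIs in 1 cell.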

Additional observations from a re-analysis of the deposited data

Results flagged for a closer look

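Jun had opposite directions in the Cd209a+ cells and in cDC1. Its log2 ratio of IR over Control was 1.46 in the Cd209a+ cells (30 and 151 UMIs) and -3.04 in cDC1 (55 and 3 UMIs, in 16 and 8 cells). The difference was not tested, since each group is 1 library.

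Arg1 had opposite directions in the Cd209a+ cells and in monocytes. Its log2 ratio was -3.85 in the Cd209a+ cells (63 and 8 UMIs, with 79.4% and 87.5% in 1 cell) while monocytes went from 634 to 1795 CPM (1859 and 13956 UMIs). The difference was not tested.

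Barcodes with at least 2 Cd209a UMIs that the rule left out made up 1.54% of barcodes in Control (72 of 4679, interval 1.21 to 1.93) and 2.11% in IR (72 of 3411, interval 1.66 to 2.65). Of these, 46 and 63 had at least 2 Ly6c2 UMIs. They held 596 and 518 CPM of Cd209a and 5164 and 3895 CPM of H2-Aa, against 8704 and 10124 CPM of H2-Aa in the Cd209a+ cells.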

How the results depend on the processing

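No paired analysis was possible because each group is 1 library, and for the same reason no replicate could be left out. Of 1295 alternative values of 69 results, 1188 stayed inside the interval of the reported value, or within 1.5-fold for counts of genes. A total of 89 moved outside, and 18 reversed a value whose interval excluded no difference. Where the interval included 0, a change of sign was not counted: the cDC2 marker median went from 0.02 to -0.12 with the rule applied at 2000 UMIs. Under the same rule the chemokine median went from -0.33 to 1.39. The median of the interferon list kept its direction in all 22 alternatives, from 0.39 to 1.07. The cause of each change below was not tested. The count of genes higher in IR was 132 with Cd209a at least 1, 73 without the Ly6c2 limit, 112 with free RNA subtracted at the share estimated from 27 genes, 24 with at least 50 UMIs and 58 at a fold limit of 1.5. The count lower was 64 with Cd209a at least 1, 118 without the C1q limit, 69 with that free RNA subtracted, 67 for the mean of per-cell CPM, 21 with at least 50 UMIs, 66 with no minimum of UMIs and 21 in cells without Mgl2. That share (27.7% in Control, 9.68% in IR) rested on Il1r2 and Klrk1, and with 2.64% and 0.905% the counts were 39 and 44. The macrophage median was -0.56 without the Ly6c2 limit and -0.54 with the rule applied at 2000 UMIs, and had no value under the larger free RNA share. The class II median was 0.31 without the C1q limit and 0.45 in cells without Mgl2. The ratio of shares was 3.66 with C1q at 0 UMIs and reversed to 0.69 among dendritic cells and monocytes. With the rule applied at 2000 UMIs, the reversed values were Ccl5 1.10, Fabp5 0.18, Hspa1b -3.13, Mmp12 1.09, Spp1 0.57, Tnfaip3 0.0025, Vdac1 -0.053 and the cytokine median -0.45. That rule called 38 genes higher and 37 lower, of which 10 and 9 were shared with the calls reported. Other reversed values were Cd24a -0.065 (Cd209a at least 1), Fabp5 0.15 (Ly6c2 0 UMIs) and 1.25 (C1q 0 UMIs), Hspa1b -0.53 (no C1q limit), Plet1 -0.22 and Spp1 0.051 (no Ly6c2 limit), Top2a 0.14 (C1q 0 UMIs), the cytokine median -0.074 (cells with Mgl2) and the transcription factor median 0.19 (cells without Mgl2). Chil3 and Retnla had no ratio where a library was left with 0 UMIs. The splits by Mgl2, the smaller free RNA share and leaving out the cell with the most UMIs were chosen after seeing the data. In these 66 cells a gene at 0 may still stand at up to 14.2 CPM in Control and 7.78 CPM in IR.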

Other observations

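Genes outside the lists of the report were also called. Anxa1, a phospholipid-binding protein that limits inflammation, went from 260.3 CPM (196 to 339) to 534 CPM (464 to 612), in 22 and 30 cells, and Ifi203, of the Ifi200 family, at 128 and 262 CPM, in 15 and 26 cells. Both were still called without the cell with the most UMIs, and both were named after their values were seen. Of 16 cytokine and growth factor receptors, 5 chemokine receptors and 5 pattern recognition genes tested, 0 were called, with median log2 ratios of -0.36, -0.18 and -0.34.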
